A study of Mus musculus with 8 samples.

Results

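The LIN28, HMGA and IGF2BP oncofetal genes are a set of 8 genes: Lin28a, Lin28b, Hmga1, Hmga2, Igf2bp1, Igf2bp2, Igf2bp3 and Dis3l2. They were chosen by name and pathway, not by a measured value, and all array probe sets annotated to 1 of these genes and to no other were taken. This gave 20 probe sets for 6 genes, of 34958 single-gene probe sets and 18194 genes in the whole series. Hmga1 and Igf2bp2 had no such probe set and were not analysed here.

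RNA from 8 neuroblastic tumors of LSL-MYCN;Dbh-iCre mice was hybridised, 1 Affymetrix array per tumor. Tumors 7 and 8 came from the superior cervical ganglion, which lies in the neck and belongs to the sympathetic chain, and tumors 1 to 6 came from the adrenal. All 8 tumors shared 1 genotype: a human MYCN cDNA at the ROSA26 locus, behind a CAG promoter and a floxed stop cassette, and a Cre recombinase under the Dbh promoter, which is active in noradrenergic cells. The mice received no treatment. Ages and strain were not given in the labels, and the colony of the study was of mixed strain background. Whether the 8 tumors are from different mice is not stated in the sources used here, and p-values therefore describe the spread among tumors. Normal adrenals were not analysed here, so every level is described among tumors and none against normal tissue.

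Oncofetal genes are active in the embryo and in many cancers and are mostly silent in adult tissue. LIN28A and LIN28B are RNA-binding proteins that block maturation of the let-7 microRNAs. They bind the terminal loop of the let-7 precursor, the uridyltransferases TUT4 and TUT7 add a uridine tail, and the exonuclease DIS3L2 degrades the tailed precursor. Mature let-7 represses HMGA2, an architectural chromatin protein, the IGF2BP mRNA-binding proteins, MYCN and LIN28B itself, so the genes of the set stand upstream and downstream of 1 microRNA family. LIN28B is known as a driver of neuroblastoma that acts through let-7 and MYCN. The paper states that the transgenic MYCN cDNA has no regulatory untranslated regions. By its account, microRNAs aimed at the 3′ untranslated region of MYCN therefore cannot be studied in these mice.

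The sequences that join the set are those of let-7. The RefSeq table for build GRCm38.p6 held 11 mature sequences of the let-7 family, and 10 of them shared 1 seed, the bases 2 to 8 that pair with target mRNAs. The same seed occurred in 11 of all 1679 mature sequences (0.655%). Of the 4 shown here, with the seed in capitals, let-7a, let-7g and miR-98 carry the shared seed and let-7j a different one.
let-7a-5p: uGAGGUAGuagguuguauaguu
let-7g-5p: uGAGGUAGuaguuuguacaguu
miR-98-5p: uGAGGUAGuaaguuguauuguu
let-7j: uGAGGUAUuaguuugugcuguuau

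LIN28 proteins recognise the motif GGAG in the terminal loop, the stretch between both arms of the hairpin. The motif, searched on the RNA strand alone, was in the loop of 9 of 12 let-7 family hairpins and in the loop of 44 of 633 other hairpins with both arms annotated (6.95%). The 20 bases before the 3p arm are shown for 3 hairpins with the motif, in capitals, and for the 3 without it. A match is a description of the letters and not evidence of binding in these tumors.
Mirlet7a-1: cacccaccacugGGAGauaa
Mirlet7g: accacccgguacaGGAGaua
Mirlet7i: auugcccgcuguGGAGauaa
Mirlet7b: uguugccccuccgaagauaa
Mirlet7c-2: ucugccccgcucugcgguaa
Mir98: aggccccaguaagaagauaa

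MYC proteins, the transgene product among them, bind the E-box CACGTG, which reads the same on both strands. Promoter windows, 250 bases before to 50 bases after the annotated start, were found for 7 of the 8 genes, all but Igf2bp1. Lin28b held 1 E-box and Igf2bp3 held 2, and the other 5 genes held none, against 7.15% of all 32851 windows in the table. The Lin28b E-box began 49 bases before the start, and the stretch of GRCm38.p6 around it, chr10:45470233-45470262 on the minus strand, is shown with the motif in capitals. The first Igf2bp3 E-box began 23 bases before the start, in chr6:49214960-49214989 on the minus strand, and the other began at base 6 of the transcript.
Lin28b: aattgacagagtCACGTGtgctcaggggcc
Igf2bp3: gctgggattcctCACGTGagacgttgattt

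Levels are log2 values as deposited, which ran between 3.00 and 15.27 over all probe sets. Sensory receptor genes (olfactory, vomeronasal, taste), 84 probe sets in all, gave the background. The detection limit of an array was the 95th percentile of those 84, which lay between 6.71 and 7.21 over the 8 tumors. Tumor 7 stood apart from the rest. Of the 9 measured genes of 11 listed noradrenergic neuroblast markers, 8 were lowest in tumor 7, as were 4619 of all 18194 genes. Gata3, a transcription factor of sympathetic neurons, was 5.22 in tumor 7 and was not detected. It was 11.54 in tumor 8 and 11.12 to 11.80 in the adrenal tumors. Hand2 and Isl1, also lowest in tumor 7, were still 12.58 and 13.48 there. Insm1 went the other way, at 12.28 in tumor 7, 10.91 in tumor 8 and 11.31 to 11.80 in the adrenal tumors. Th and Dbh, enzymes of catecholamine synthesis, were detected in all 8 tumors but were far lower in tumor 7. Th was 10.36 there and 13.62 to 14.25 in the others, and Dbh was 9.07 there and 12.53 to 13.54 in the others. Slc6a2 of the same list was 6.65 in tumor 7, below the limit, and 12.37 to 13.37 in the others. In tumor 6 hepatocyte genes were high, with a summed level of 15.73 against at most 9.56 in the others. RNA integrity was judged by Gapdh, whose 3′ probe set exceeded the 5′ probe set by 5.51 in tumor 1 and by 0.47 to 1.57 elsewhere.

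Most of the set was below or near the detection limit in these tumors. Only Igf2bp3 and Dis3l2 were detected in all 8 tumors on the probe set with the highest mean, which represents each gene below. Lin28b, Hmga2 and Igf2bp1 were detected in some tumors and Lin28a in none. Of all 18194 genes, 54.6% passed the limit in each of the 8 tumors and 30.9% in none. Counted by probe set, 2 of the 20 were detected in all tumors, 9 in some and 9 in none, against 45.2% in all and 37.1% in none over all single-gene probe sets. With the lower limit of log2 5 that the Methods use, 5 of the 6 measured genes, all but Lin28a, were above the limit in all 8 tumors.

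**Figure D1:**
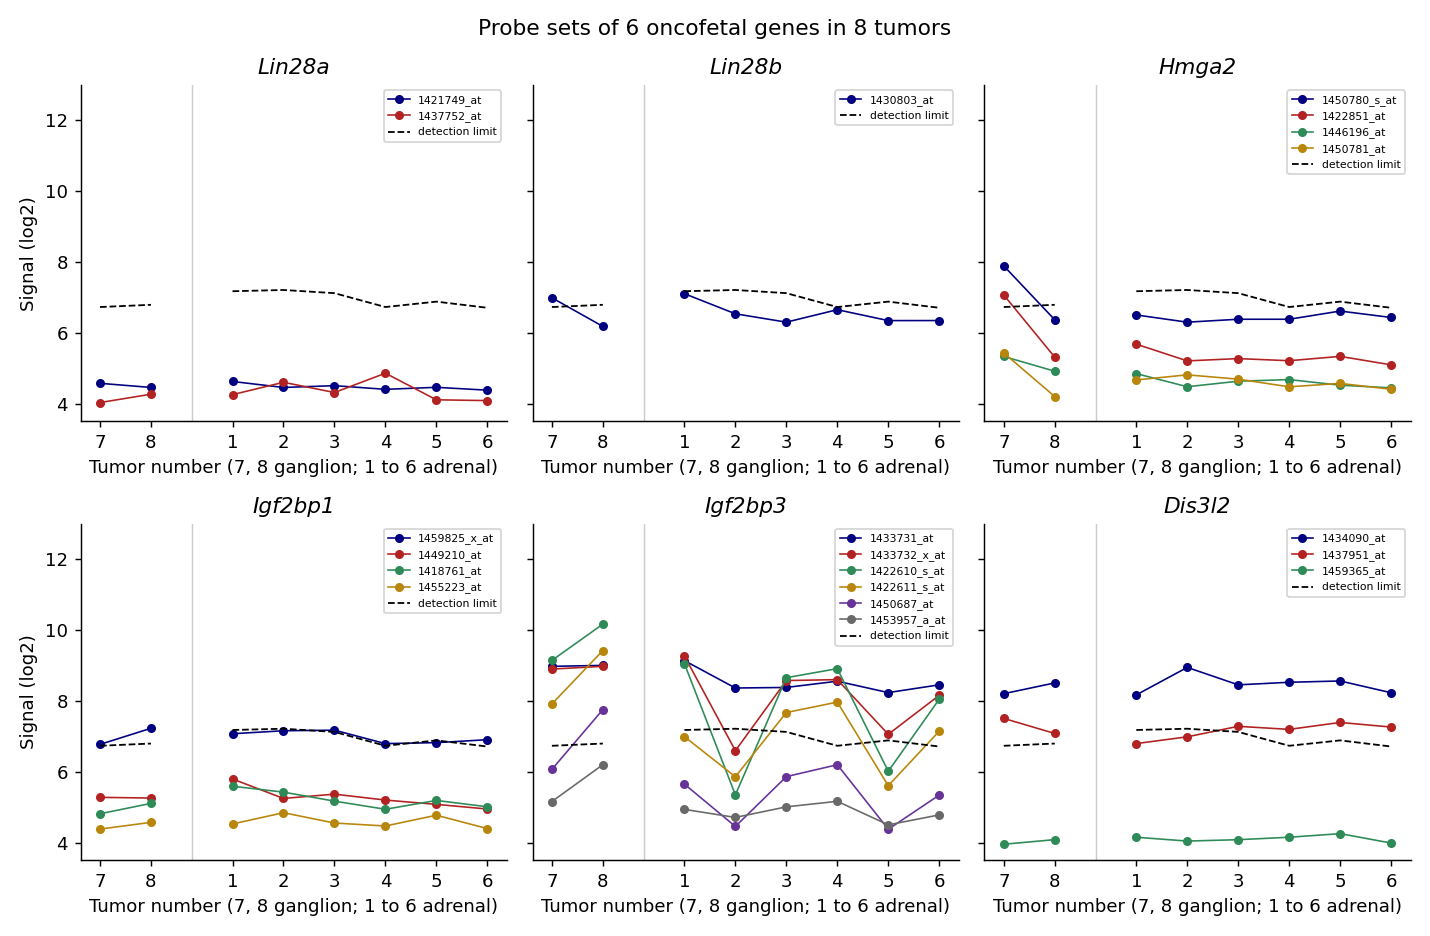
Log2 signal of the 20 probe sets of 6 genes in each tumor, ganglion tumors 7 and 8 left of adrenal tumors 1 to 6, with 1 point per array, lines that join the points of 1 probe set within a site, and the detection limit of each array dashed. Lin28a stayed at or below 4.86, Hmga2 crossed the limit in tumor 7 alone, and Igf2bp3 dipped in tumors 2 and 5.

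Lin28a, the family member of pluripotent stem cells, was below the limit on both of its probe sets. On 1421749_at the level was 4.58 in tumor 7 and 4.46 in tumor 8, and 4.38 to 4.63 in the adrenal tumors. On 1437752_at it was 4.03 and 4.27 in the ganglion tumors and 4.09 to 4.86 in the adrenal tumors. The ranges of both sites overlapped, and the gene did not reach log2 5 in any tumor and was not tested.

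Lin28b, the paralog expressed in fetal tissues and in neuroblastoma, was measured by a lone probe set, 1430803_at. Its level was 6.99 in tumor 7 and 6.18 in tumor 8, against 7.11, 6.54, 6.30, 6.66, 6.35 and 6.35 in adrenal tumors 1 to 6. Tumor 7 was above its detection limit of 6.73. Tumor 1 had the highest value, 7.11, but remained below its own limit of 7.18. The ganglion and adrenal tumors overlapped, and their means of 6.59 ± 0.57 (SD, n = 2) and 6.55 ± 0.30 (SD, n = 6) differed by 0.04. Lin28b was thus near background in tumors of both sites.

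Dis3l2, the exonuclease at the end of the LIN28 pathway, was detected in every tumor on 1434090_at. The level was 8.20 in tumor 7 and 8.50 in tumor 8, against 8.17, 8.94, 8.45, 8.52, 8.56 and 8.23 in adrenal tumors 1 to 6. The 8 values spanned 0.78, the ganglion values lay within the adrenal range, and the SD of 0.25 was near the median of 0.26 over 30285 probe sets. On 1437951_at it was 7.50 and 7.08 in the ganglion tumors and 6.79 to 7.39 in the adrenal tumors and was detected in 6 tumors. On 1459365_at it was detected in none.

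Hmga2, a let-7 target that binds the minor groove of AT-rich DNA, stood out in tumor 7. On 1450780_s_at the level was 7.89 in tumor 7 and 6.37 in tumor 8, against 6.51, 6.30, 6.39, 6.39, 6.62 and 6.44 in adrenal tumors 1 to 6. On 1422851_at it was 7.07 in tumor 7 and 5.32 in tumor 8, against 5.68, 5.21, 5.28, 5.22, 5.34 and 5.10 in the adrenal tumors. Both probe sets were detected in tumor 7 and in no other tumor, and tumor 8, from the same kind of ganglion, lay within the adrenal range on both. The other 2 probe sets, 1446196_at and 1450781_at, were detected nowhere but were also highest in tumor 7, at 5.34 and 5.44. Tumor 7 was thus highest on 4 of 4 probe sets, with a gap of 0.42 to 1.39 to the next tumor. The gap was above 1 on 1450780_s_at and 1422851_at alone. These probe sets measure 1 gene in the same arrays and are not replicates. Tumor 7 was the highest of the 8 on 18.6% of all 30285 probe sets, and the highest by at least 1 on 1.83%. It was singled out with its values known, so these shares do not measure how unusual the pattern is.

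Igf2bp3 had the widest spread over tumors of the 20 probe sets, on 1422610_s_at, but not on the probe set that represents the gene, 1433731_at, whose SD of 0.35 was below the 0.53 of Hmga2 on 1450780_s_at. Its protein, also called IMP3, binds mRNAs and steadies many of them, and it is nearly absent from most adult tissues. On 1422610_s_at the level was 9.14 in tumor 7 and 10.16 in tumor 8, against 9.05, 5.35, 8.65, 8.91, 6.01 and 8.05 in adrenal tumors 1 to 6. Tumors 2 and 5 were below the detection limit, and the other 6 tumors were well above it. The range was 4.82 on the log2 scale and the SD of 1.65 was higher than that of 99.5% of probe sets.

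The 6 probe sets of Igf2bp3 gave the same 2 lowest tumors and different ranges. On 1422611_s_at the level was 7.91 and 9.42 in tumors 7 and 8, against 6.99, 5.86, 7.67, 7.96, 5.60 and 7.14 in adrenal tumors 1 to 6. On 1433732_x_at it was 8.90 and 8.97 in the ganglion tumors, against 9.27, 6.59, 8.57, 8.60, 7.05 and 8.15 in the adrenal tumors. On 1433731_at, which represents the gene, it was 8.97 and 9.00 in the ganglion tumors, against 9.14, 8.36, 8.38, 8.55, 8.23 and 8.45 in the adrenal tumors. This probe set was detected in all 8 tumors and spanned only 0.90, so that a reading of Igf2bp3 as present in every tumor rests on it alone. The other 2 probe sets were lower: 1450687_at was detected in tumor 8 alone, at 7.75, and 1453957_a_at nowhere. Tumors 2 and 5 were the 2 lowest on 6 of 6 probe sets. On 1433731_at, however, tumors 2 and 3 differed by little, at 8.36 and 8.38. The same 2 tumors were the lowest on 4.45% of all probe sets. That pair was chosen after the Igf2bp3 values were seen, so the share does not measure how unusual the pattern is. The 6 probe sets of Igf2bp3 measure 1 mRNA in the same arrays and are not replicates. Tumor 8 was the highest on 4 of them and tumor 1, the tumor with low RNA integrity by Gapdh, on the other 2.

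**Figure D2:**
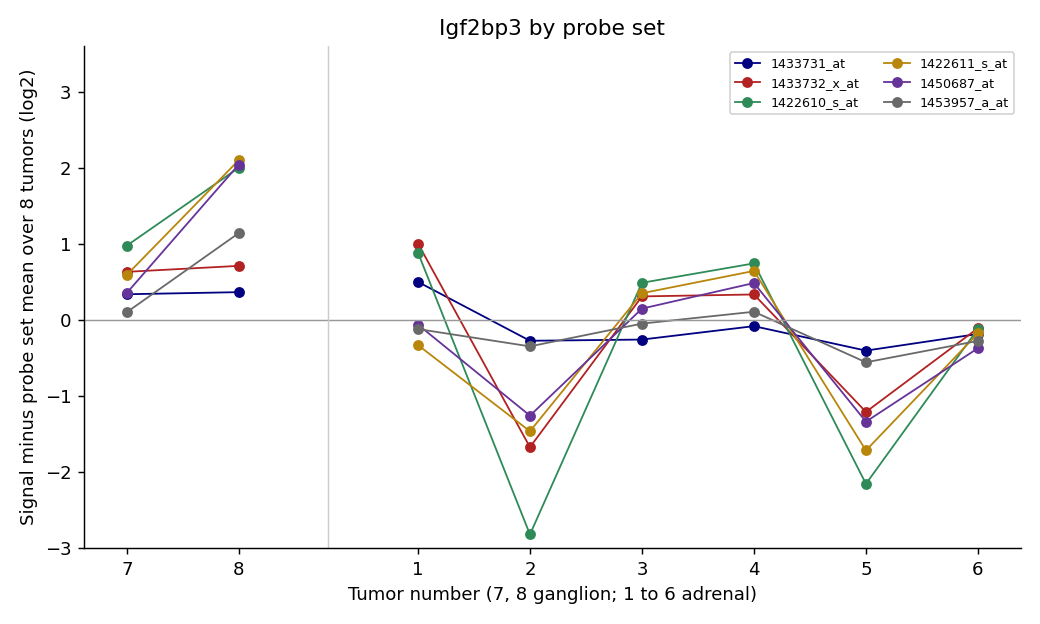
Log2 signal of the 6 Igf2bp3 probe sets minus the mean of each over the 8 tumors, ganglion tumors left of adrenal tumors, 1 point per array. Adrenal tumors 2 and 5 are the 2 lowest on each of the 6 probe sets, and the range over tumors goes from 0.90 on 1433731_at to 4.82 on 1422610_s_at.

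Markers of other cells varied over the same tumors. The fibroblast and pericyte list, 7 of 7 genes measured, had a summed level of 13.48 and 14.17 in tumors 7 and 8, against 11.23 in tumor 5, 13.54 in tumor 2 and 13.14 to 14.74 in the other adrenal tumors. The collagen genes Col1a1, Col1a2 and Col3a1 were detected in all tumors and lowest in tumor 5. The proliferation list, 6 of 7 genes measured, was 15.12 and 15.09 in tumors 7 and 8, against 14.66 in tumor 2, 14.94 in tumor 5 and 15.22 to 15.67 in the other adrenal tumors. The part of either in the Igf2bp3 values was not tested. In bulk RNA, fewer cells of a type and less RNA per cell cannot be told apart.

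Igf2bp1, a fetal mRNA-binding protein that steadies MYC mRNA, was near background. On 1459825_x_at it was 6.77 in tumor 7 and 7.22 in tumor 8, against 7.07, 7.15, 7.17, 6.79, 6.82 and 6.90 in adrenal tumors 1 to 6, and 5 tumors passed the limit by a small margin. An _x_at name marks a probe set whose probes can also match other sequences, which holds for 1433732_x_at of Igf2bp3 too. The 3 further probe sets of the gene, 1418761_at, 1449210_at and 1455223_at, were detected in no tumor, with a highest level of 5.79.

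The site comparison set the 2 ganglion tumors against the 6 adrenal tumors in limma over 16254 genes above log2 5 in at least 2 tumors, with Benjamini-Hochberg adjustment. No gene of the set passed the threshold of 0.05. Over all genes 3 passed (0.0185%), the muscle genes Acta1 and Tnnt3 and the gene Clvs2, chosen after its values were seen. All 3 were higher in the ganglion tumors. Unadjusted limma p was under 0.05 for 761 genes (4.68%). None of these was in the set, where each gene was tested on the probe set that represents it. Igf2bp3 averaged 8.99 ± 0.02 in the ganglion tumors (SD, n = 2) and 8.52 ± 0.32 in the adrenal tumors (SD, n = 6), a difference of 0.47 ± 0.23 (SE; limma adjusted p = 0.90). Hmga2 averaged 7.13 ± 1.08 in the ganglion tumors and 6.44 ± 0.11 in the adrenal tumors, a difference of 0.69 ± 0.32 (SE; limma adjusted p = 0.90). The differences of Lin28b, Igf2bp1 and Dis3l2 were 0.04, 0.01 and -0.13, with limma adjusted p = 0.97 to 1.00. The intervals were wide, from -0.57 to 0.65 for Lin28b and from -0.61 to 0.36 for Dis3l2, so changes of that size were not detectable with these tumors.

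By probe set, Igf2bp3 was higher on average in the ganglion tumors on 6 of 6 probe sets, with differences of 0.47 to 1.98. On 1422610_s_at both ganglion tumors lay above all adrenal tumors, which held for 2.59% of 30285 probe sets, and the difference was 1.98 with a 95% interval of -0.32 to 4.29. On 1422611_s_at it was 1.79 with an interval of 0.27 to 3.32, and on 1450687_at 1.60 with an interval of 0.28 to 2.92. Each of the 6 had a limma adjusted p of 0.99 in the fit over all probe sets, which called 5 probe sets (0.0165%). Unadjusted limma p was 0.015 to 0.046 for Igf2bp3 1422611_s_at, 1450687_at and 1453957_a_at and for Hmga2 1422851_at. It was under 0.05 for 4% of all 30285 probe sets. On 1422610_s_at the 9.14 of ganglion tumor 7 was close to the 8.65 to 9.05 of adrenal tumors 1, 3 and 4, and the wide gap was to adrenal tumors 2 and 5.

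**Figure D3:**
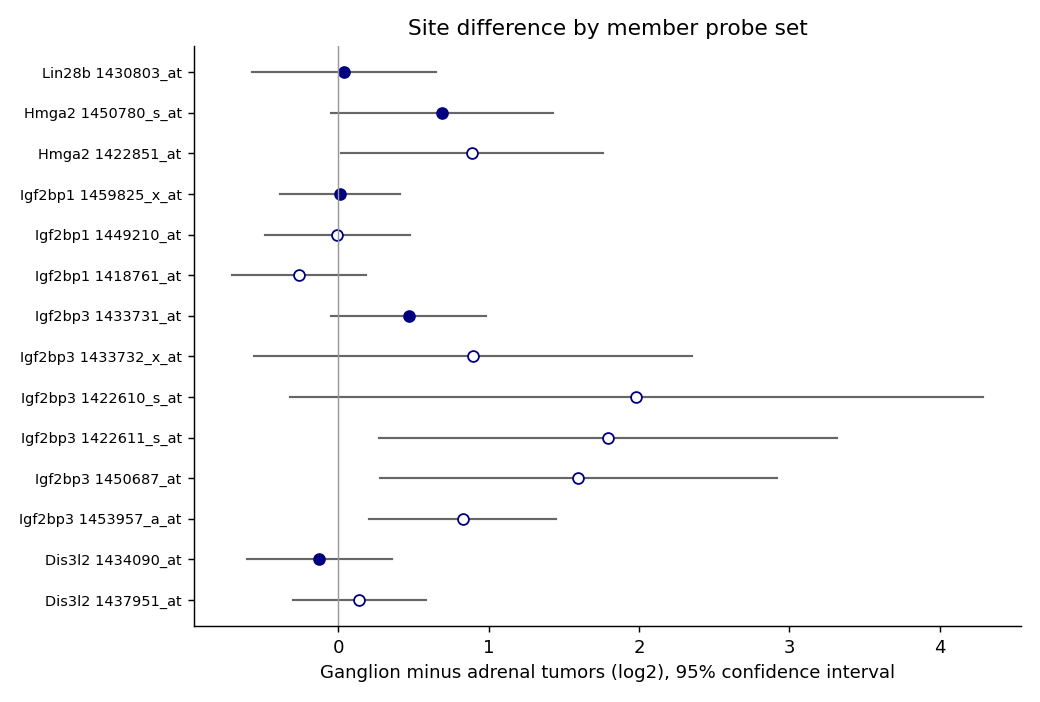
Difference of ganglion minus adrenal tumors on the log2 scale, with unadjusted 95% confidence intervals from limma, for the 14 probe sets of the set that were tested, filled points marking the probe set that represents a gene. All 6 Igf2bp3 points lie right of 0, at 0.47 to 1.98, and no probe set passed the threshold after adjustment.

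The Hmga2 difference was seen in tumor 7 alone. Without tumor 8, that is with tumor 7 alone against the 6 adrenal tumors, 951 of 16210 genes were called by limma (5.87%; 463 higher, 2.86%, and 488 lower, 3.01%), and Hmga2 was among them with a difference of 1.45 ± 0.18 (SE; limma adjusted p = 0.0038). This fit assumes that the lone ganglion tumor varies as the adrenal tumors do. The adrenal Hmga2 values, 6.30 to 6.62, were all below the detection limit, so their small spread is that of values near background. Without tumor 7 the Hmga2 difference was -0.068, and 8 genes were called (0.0493%). Igf2bp3 differed from the adrenal tumors by 0.45 in tumor 7 and by 0.48 in tumor 8, and neither passed (limma adjusted p = 0.52 and 1.00). Lin28b differed by 0.44 in tumor 7 and by -0.37 in tumor 8 (limma adjusted p = 0.51 and 1.00).

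Other genes of the let-7 pathway were read from lists of its parts. Of 23 genes of microRNA biogenesis and let-7 turnover, 23 were measured, 21 were detected in all 8 tumors and none was called in the site comparison, with a median difference of -0.00 against -0.03 over all genes. The helicases Ddx17 and Ddx5, cofactors of Drosha, were 13.51 ± 0.18 and 13.21 ± 0.25 (SD, n = 8). The exceptions were Ago4, an Argonaute, detected in 5 tumors, and Trim71. Dicer1, Drosha, Tut4 and Tut7 were thus detected in the same 8 tumors in which Lin28a was detected nowhere.

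Trim71, also called LIN41, is a let-7 target and stem cell E3 ligase, and it was detected in tumor 7 alone. On 1456673_at it was 8.11 in tumor 7 and 5.78 in tumor 8, against 5.03 to 6.63 in the adrenal tumors, and on 1453599_at it was 8.30 in tumor 7 and 5.29 in tumor 8, against 5.12 to 5.79 in the adrenal tumors. Trim25, an E3 ligase reported to help LIN28A recruit TUT4, was 12.16 in tumor 7 and 8.64 in tumor 8 on 1419879_s_at, against 7.85 to 9.17 in the adrenal tumors, and it was highest in tumor 7 on 3 of 3 probe sets. In the fit of tumor 7 against the adrenal tumors, Trim25 differed by 3.72 ± 0.43 and Trim71 by 2.32 ± 0.48 (SE). The median difference of the 23 genes in that fit was 0.08, against -0.07 over all genes.

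**Figure D4:**
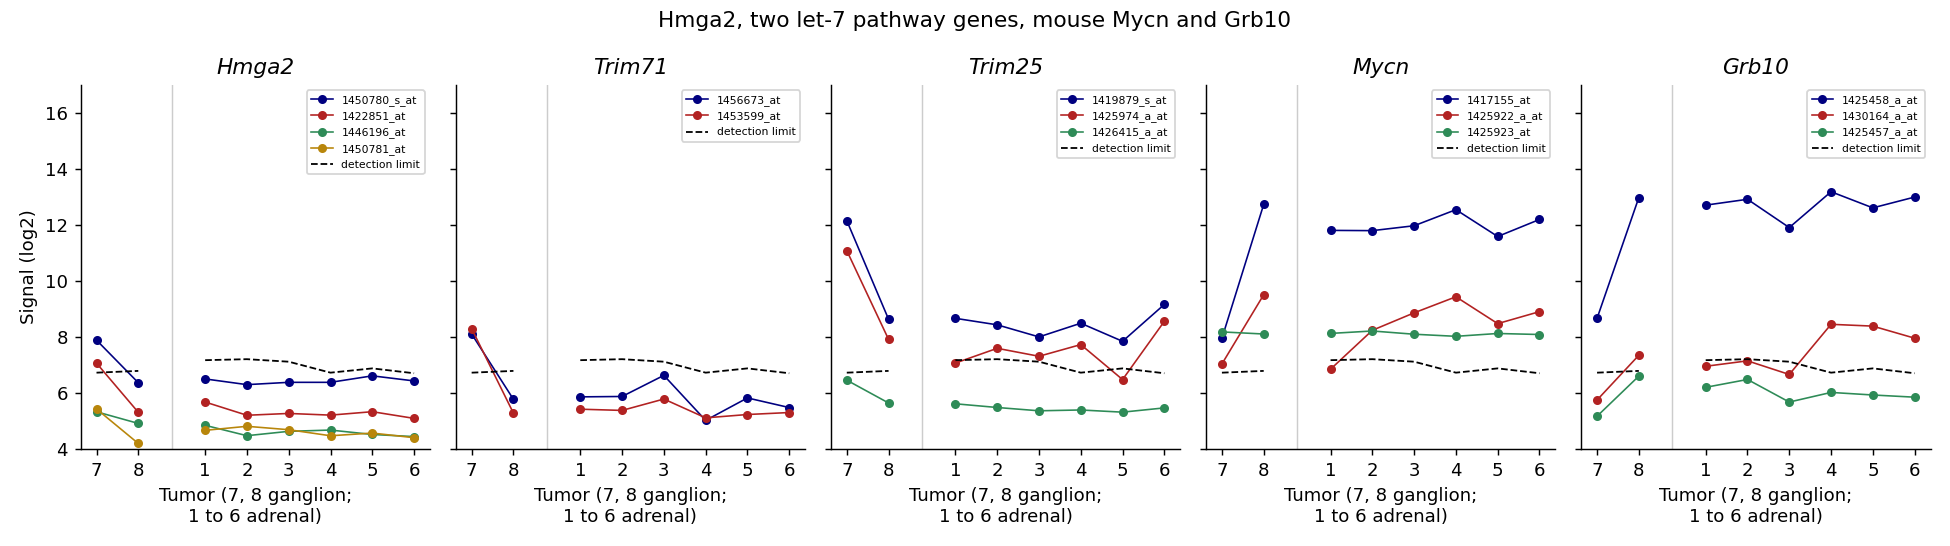
Log2 signal by tumor of Hmga2, the let-7 pathway genes Trim71 and Trim25, mouse Mycn and Grb10, ganglion tumors 7 and 8 left of adrenal tumors 1 to 6, 1 line per probe set and the detection limit dashed. Tumor 7 is the highest for Hmga2, Trim71 and Trim25 on every probe set shown, and for Mycn 1417155_at and Grb10 1425458_a_at it is the lowest, at 7.96 and 8.67.

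Of 33 listed let-7 targets, 30 were measured, 20 were detected in all 8 tumors, and Fas and Acvr1c were detected in none. None was called in the site comparison, and the median difference of the 29 tested was -0.12. The cyclin Ccnd1 was 13.77 ± 0.67 and the GTPase Ran 13.77 ± 0.16 (SD, n = 8). In tumor 7 against the adrenal tumors, 1 of the 29 was called higher, which was Trim71, against 2.86% of all genes, and 2 were called lower, Mycn and Ccnd1, against 3.01%. These counts are too small to set the list apart from all genes. The median of the list was -0.15 in that fit and -0.07 over all genes.

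Mouse Mycn, the endogenous gene, was 7.96 in tumor 7 and 12.74 in tumor 8 on 1417155_at, against 11.59 to 12.55 in the adrenal tumors. Its difference in tumor 7 was -4.03 ± 0.33 (SE; limma adjusted p = 0.00066). On 1425922_a_at tumor 7 was 7.04 and tumor 8 was 9.51, against 6.86 to 9.44 in the adrenal tumors, and on 1425923_at all 8 tumors lay between 8.03 and 8.22, so the gap was not seen on every probe set. These probe sets were designed on the mouse gene, and how far they detect the human transgene was not tested. Ccnd1 was 12.27 in tumor 7, which was -1.69 ± 0.31 from the adrenal mean (SE; limma adjusted p = 0.021).

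The array did not measure mature let-7. Of 16 listed let-7 genes and host transcripts, 3 were measured: Huwe1, which hosts let-7f-2 and miR-98 and was detected in all tumors at 9.60 to 11.48, Mir99ahg, the host of let-7c-1, detected in none, and Lncppara, the current name of a transcript listed as Mirlet7bhg, detected in 7 tumors. None was called.

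Partners and clients of the IGF2BP proteins were broadly present. Of 20 listed genes 18 had a probe set and 16 passed the limit in all tumors, with Actb at 14.63 ± 0.07 and Pabpc1, the poly(A)-binding protein, at 14.25 ± 0.12 (SD, n = 8), and none was called. The exceptions were Gli1, detected in none, and Igf2, the fetal growth factor that gave the IGF2BP family its name. Igf2 was 7.69 and 7.42 in tumors 7 and 8 on 1448152_at, against 6.50 to 7.23 in the adrenal tumors, and was detected in 3 tumors. Both ganglion tumors were above all adrenal tumors for 2.31% of genes, and the Igf2 difference of 0.74 on 1448152_at did not pass. On the other Igf2 probe set, 1415931_at, the gene was detected in no tumor. There it was 4.63 and 4.92 in tumors 7 and 8, against 4.67 to 4.94 in the adrenal tumors, so the order was not repeated. Among 10 genes linked to HMGA proteins, Plag1 and Snai1 were detected in no tumor, 5 were detected in all, among them the cyclin Ccna2 and the retinoblastoma gene Rb1, and none was called in the site comparison or in either ganglion tumor against the adrenal tumors.

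Other oncofetal and imprinted genes, 13 of 14 measured, held both undetected genes and genes detected throughout. Sall4, Afp and Gpc3, markers of germ cell and liver tumors, were detected in no tumor. Meg3 and Plagl1, imprinted genes of the embryo, were 13.88 ± 0.25 and 13.62 ± 0.36 (SD, n = 8) and were detected in all. None was called in the site comparison. In tumor 7 against the adrenal tumors, Grb10 and Tet1 had the largest differences of the list, both negative. Grb10, an imprinted inhibitor of insulin and IGF receptor signalling, was 8.67 in tumor 7 and 12.98 in tumor 8. It was 11.91 to 13.19 in the adrenal tumors, a difference of -4.05 for tumor 7. Tet1, a DNA demethylase, differed by -1.22. Dlk1 on 1442724_at was 12.71 in tumor 7, against 9.80 to 11.42 in the others. On 1449939_s_at, which represents the gene, it was 11.99, against 11.19 to 11.96.

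Beside these values of tumor 7 stand its cell type markers. The summed level of the noradrenergic list was 14.74 in tumor 7 and 16.26 in tumor 8, against 16.03 to 16.34 in the adrenal tumors. The skeletal muscle list, 8 of 8 genes measured, was highest in tumor 7 for 6 genes, and its summed level was 11.15 in tumor 7 and 10.54 in tumor 8, against 9.05 to 9.42 in the adrenal tumors. Tnnt3 and Atp2a1 of that list were detected in no tumor. The part of these in the Hmga2, Trim71, Trim25, Mycn and Grb10 values was not tested.

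The genes of the set were also compared with one another over the 8 tumors. Among 10 pairs of the 5 tested genes, none had a correlation that passed adjustment, with a smallest adjusted exact permutation p of 0.39 for Pearson's r and 0.29 for Spearman's rho. The lowest unadjusted p was that of Hmga2 with Igf2bp1, r = -0.55 (two-sided exact permutation p = 0.048, adjusted p = 0.39; n = 8) and rho = -0.71 (exact permutation p = 0.058, adjusted p = 0.29), and r was -0.28 without tumors 5 and 7, the 2 farthest from the Hmga2 median. Lin28b and Igf2bp3, both highest in tumor 1, had r = 0.58 (exact permutation p = 0.14, adjusted p = 0.39; n = 8) and rho = 0.38 (exact permutation p = 0.36, adjusted p = 0.51). That r changed with the tumors included. Without tumors 1 and 7, the 2 farthest from the Lin28b median, it was -0.37. Without tumor 8 it was 0.95 (exact permutation p = 0.0042, adjusted p = 0.042; n = 7) with rho = 0.82 (exact permutation p = 0.034, adjusted p = 0.17), the single pair to pass by Pearson's r with any 1 tumor left out. Within the 6 adrenal tumors r was 0.93 (exact permutation p = 0.026, adjusted p = 0.26) and rho was 0.71 (exact permutation p = 0.14, adjusted p = 0.68). Lin28b was below the detection limit in all 6 of them and detected in tumor 7 alone, so these correlations rest on Lin28b values near background. Without tumor 1, which was highest for both genes and had the wide Gapdh gap, r was 0.32 (exact permutation p = 0.51, adjusted p = 0.63; n = 7).

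The genes most like each member were found over all tested genes by the root mean square difference of log2 values after each gene was centred on its own mean over the 8 tumors. For Hmga2 these were Rgs8 (0.08), Noc2l (0.09) and Pcolce2 (0.10), all highest in tumor 7, at 7.33, 10.83 and 8.06. For Igf2bp3 on 1433731_at they were Bicc1 (0.09), an RNA-binding protein, Loxl3 (0.11), a lysyl oxidase, and Myh9 (0.12), non-muscle myosin. For Lin28b they were Enoph1, Gtf2h4 and Dhx37 (0.07 to 0.10), for Dis3l2 Ccdc92, Abi2 and Fam131a (0.07 to 0.09), and for Igf2bp1 Krt15, Actl7a and Zfp750 (0.04 to 0.05). Krt15, Actl7a and Zfp750 were at most 6.21 in any tumor, below the lowest detection limit of 6.71. The wide pattern of Igf2bp3 on 1422610_s_at had no near match: the nearest genes, examined after its values were seen, were Ifitm2 and F3, at 1.03 and 1.04 against an SD of 1.65 for the probe set itself.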

How the data were processed

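The authors deposited log2 values for 45101 probe sets of 8 Affymetrix mouse arrays. Per the submitters' notes they come from RMA in Partek 6.6, per the Methods from gcRMA, which was not settled. Either includes a background correction and a normalization across arrays. The platform annotation gave 1 gene for 34958 probe sets, several for 932 and none for 9211, and 34754 of the first matched the GRCm38.p6 table by Entrez identifier. Sequences are from RefSeq, GRCm38.p6. The probe set of highest mean stood for its gene. The site fit used limma 3.58.1 under R 4.3.3 (lmFit, eBayes, Benjamini-Hochberg, threshold 0.05), tested on simulated data; pairs by exact permutation in scipy 1.17.1 under Python 3.11.15. The members, gene lists and tests were chosen with earlier results of these data known. Genes named are all members and, within a list, up to 4 called genes with the largest difference, the 2 highest and 2 lowest means, those detected in no tumor, the 3 genes most like a member and Mycn; some others are named because their values stood out and were chosen after those values were seen, among them Trim25, Igf2, Grb10, Tet1 and single marker genes. The number of arrays limits the precision. Alternatives covered the normalization, low-value filter, probe set rule, detection limit and each tumor left out.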

Additional observations from a re-analysis of the deposited data

Results flagged for a closer look

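In 40 groups of tumors, the 20 probe sets over all 8 tumors and over the 6 adrenal tumors, 4 had a highest or lowest tumor far from the rest by Dixon's ratio, the gap to the nearest tumor divided by the whole range. Chance alone gives about 1 in 20 for a single group. The groups are not independent, because they share tumors and several probe sets measure the same gene. The count of 4 is therefore not a test against chance. Hmga2 was highest in tumor 7 on 1450780_s_at (7.89, next 6.62, ratio 0.802) and on 1422851_at (7.07, next 5.68, ratio 0.704). Igf2bp3 was highest in tumor 8 on 1453957_a_at (6.20, next 5.16, ratio 0.609), a level that was not detected. Among the adrenal tumors, Igf2bp3 on 1433731_at was highest in tumor 1 (9.14, next 8.55, ratio 0.644), the tumor with the wide Gapdh 3′ to 5′ gap.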

How the results depend on the processing

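The site comparison as reported called 3 genes; a receptor-based filter called 1, the mean over probe sets 6, every probe set 5, and the fit without tumors 6 and 7 called 9. Leaving out 1 tumor gave 2 to 951 called genes, 951 without tumor 8 and 8 without tumor 7. Called genes of the oncofetal set were 0, and 0 to 1 with 1 tumor left out, the 1 being Hmga2 without tumor 8. Genes of the set detected in all tumors were 2, against 5 with the log2 5 limit and 0 with the mean over probe sets. Correlated pairs were 0, and 0 to 1 with 1 tumor left out, the 1 being Lin28b with Igf2bp3 without tumor 8. Differences near 0 changed sign. For Igf2bp1 (0.01) this was -0.093 with the mean over probe sets and -0.21 to 0.24 over the tumors left out. Lin28b (0.04) was -0.37 to 0.44 over the tumors left out and -0.41 without tumors 6 and 7. Hmga2 (0.69) was -0.069 without tumors 6 and 7 and -0.068 to 1.45 over the tumors left out, and Dis3l2 (-0.13) was -0.28 to 0.026. The cause was not tested. With the receptor-based filter Hmga2 and Lin28b, each detected in 1 tumor, did not enter the fit. Igf2bp3 stayed positive in all 20 alternatives, 0.41 to 1.98, none past the threshold; its other probe sets were added after seeing the data. No paired analysis was possible, because the sources used here do not state which mouse each tumor came from. Probe sets near the receptor-based limit, as those of Lin28b and Igf2bp1, have levels that this signal over background resolves poorly.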
